A study of Mus musculus with 33 samples.

Results

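A set of 10 genes of resting astrocytes, most of which serve to move or process small molecules, was followed in the mouse hypothalamus after ovariectomy (OVX). They are *Aqp4*, *Slc1a2*, *Slc1a3*, *Slc7a10*, *Aldh1l1*, *Gja1*, *Glul*, *Kcnj10*, *Sox9* and *Aldoc*, taken by name from the 41565 named entries of the deposited expression table, so the set holds 10 of 41565. All libraries came from WT C57BL/6 females, and the tissue was either the posterior hypothalamus (PH) or the preoptic area (POA). The mice were intact and in diestrus, or had lost both ovaries at an age of 3 to 4 months and were studied 14 days (14dOVX) or 4 months (4mOVX) later. The PH was represented by 4 intact, 6 14dOVX and 6 4mOVX libraries, and the POA by 5, 6 and 6. They fell into 2 labelled batches, with 3 libraries of every OVX group in each. The intact PH libraries were split 2 and 2 between batch 1 and batch 2, and the intact POA libraries 2 and 3. The control titles read sham although a second label and the methods read intact, which is the word used here, and 1 POA library labelled only with the number 14 was placed by its title. The 4mOVX group had no intact control of its own age, as the study itself states, so time after OVX and age cannot be told apart. Nothing states whether a PH and a POA library came from the same mouse, and *P* values measure the spread between these libraries.

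Astrocytes take up the glutamate that neurons release and turn it into glutamine, which is passed back to neurons. They also carry potassium away from active synapses, let water cross the end-feet that wrap blood vessels, and share ions and metabolites with one another through gap junctions. Loss of this upkeep program is one of the features by which resting and reactive astrocytes are told apart, and SOX9 is a transcription factor found across the astrocytes of the adult brain.

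*Slc7a10*, *Kcnj10* and *Sox9* were the members with an unadjusted *P* under 0.05 at 4 months in at least 1 region, and their promoters are shown so that the DNA next to each start can be read beside its values. Each run is the 250 bases before the outermost annotated start (GRCm39, GENCODE M39), 5′ to 3′ on the strand of the gene. Capitals mark the CCAAT box (CCAAT) and the GC box (GGGCGG), both sequences bound by general promoter factors, on either strand.
Slc7a10, plus strand, chr7:34885416-34885665: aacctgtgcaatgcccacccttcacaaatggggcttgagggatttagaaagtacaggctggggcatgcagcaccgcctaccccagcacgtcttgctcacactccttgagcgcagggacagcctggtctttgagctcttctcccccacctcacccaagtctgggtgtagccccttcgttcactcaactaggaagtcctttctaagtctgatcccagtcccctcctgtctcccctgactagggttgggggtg
Kcnj10, plus strand, chr1:172168515-172168764: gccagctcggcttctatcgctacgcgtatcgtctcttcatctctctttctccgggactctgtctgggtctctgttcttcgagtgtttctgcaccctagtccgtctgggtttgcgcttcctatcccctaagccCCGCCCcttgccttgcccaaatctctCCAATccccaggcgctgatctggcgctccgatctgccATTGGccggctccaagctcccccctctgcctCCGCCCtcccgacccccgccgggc
Sox9, plus strand, chr11:112672759-112673008: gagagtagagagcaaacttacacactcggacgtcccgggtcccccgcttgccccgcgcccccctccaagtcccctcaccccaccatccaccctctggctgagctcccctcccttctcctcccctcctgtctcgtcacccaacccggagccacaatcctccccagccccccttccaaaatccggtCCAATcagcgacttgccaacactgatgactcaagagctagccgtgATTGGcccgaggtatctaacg
The *Kcnj10* window held both motifs, the *Sox9* window held CCAAT on each strand, and the *Slc7a10* window held neither. Over the 10 genes, 5 windows held CCAAT and 3 held GGGCGG, against 36.1% and 29.9% of 21770 protein-coding promoters. The core bound by SOX factors (ACAAAG) was in 0 of 10 windows and in 17.1% of all promoters. The palindromic estrogen response element was likewise in 0 of 10, and in 0.0781% of all promoters. A match is a string of letters and not a measured site, and its absence says only that the letters are not in this window.

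The values are a normalized signal on a linear scale and not counts, so the read depth behind them is unknown and levels are compared between groups of a region and not between genes. The sum of the values in a library ranged from 44534100 to 72945400. The highest sum, that of 14dOVX PH replicate 5, stood apart from the next highest at 54486400. This library also carried most of the first surrogate variable (SV1, a factor estimated from the data without the batch labels) of the PH, at 0.785. The other PH libraries lay between −0.311 and 0.195, those of batch 2 below those of batch 1. In the POA, SV1 ran from 0.186 to 0.351 in batch 1 and from −0.322 to −0.125 in batch 2, so there it separated the labelled batches. All 10 genes lay above the limit for testing, 2 times the floor of 22.2 at which undetected genes lie, in every library. The tissue was not purified: all 12 neuron, 10 oligodendrocyte and 10 microglia markers were above the limit in every library as well. A lower value may therefore reflect fewer astrocytes, less RNA per astrocyte or a change in other cells that express the gene. These cannot be told apart in bulk tissue.

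None of the 10 genes passed the test in any comparison (limma on log2 values with SV1 as covariate, Benjamini-Hochberg adjustment over all genes, adjusted *P* under 0.05). At 14 days the count was 0 of 10 in the PH, where 0% of 21919 tested genes passed, and 0 of 10 in the POA, where 0.0047% of 21281 did. At 4 months the PH gave 0 of 10 against a background of 0.0319%, and the POA 0 of 10 against 0.094%. Between 14 days and 4 months it was again 0 of 10, with backgrounds of 0.00912% and 0.0282%. At this background a count of 0 is what 10 genes would nearly always give, so intervals and single libraries carry more of the information than the count does.

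Without adjustment, at *P* under 0.05, limma singled out 0 members in the PH at 14 days (3.04% of all genes) and 1 in the POA, *Glul* (6.14%). At 4 months there were 2 in the PH, *Slc7a10* and *Sox9* (6.07% of all genes), and 3 in the POA, the same pair and *Kcnj10* (8.51%). From 14 days to 4 months there were 2 in the PH, again *Slc7a10* and *Sox9* (4.09%), and 4 in the POA, *Slc7a10*, *Kcnj10*, *Glul* and *Aldoc* (5.11%). Comparisons within a region share libraries, so their counts are not independent of one another. The members did not move as a block: 5 were higher and 5 lower in the PH at 4 months, with a median log2 difference of −0.03 (all genes −0.01), and 4 were higher and 6 lower in the POA, with a median of −0.04 (all genes −0.01). At 14 days the PH median was 0.00 and the POA median −0.03. The unadjusted 95% intervals of all 40 differences from intact lay inside a 1.5-fold change in either direction.

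**Figure D1:**
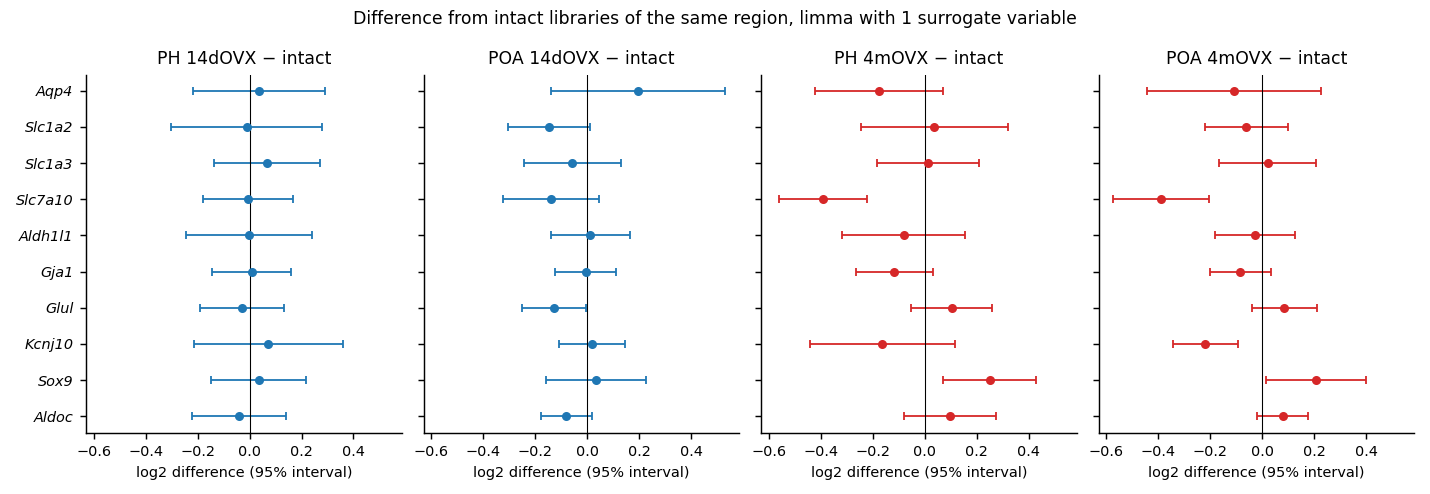
Log2 difference from the intact libraries of the same region (x axis) for each of the 10 genes (y axis), 14 days (blue) and 4 months (red) after OVX, with points for the limma estimate and bars for the unadjusted 95% interval. *Slc7a10* lies at −0.39 in both regions at 4 months, *Kcnj10* at −0.16 and −0.22 and *Sox9* at 0.25 and 0.21, while the 14-day intervals include 0 but for that of *Glul* in the POA.

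*Slc7a10* (chr7:34885666-34906995, plus strand) encodes Asc-1, a sodium-independent exchanger of small neutral amino acids such as D-serine and glycine. In the PH, the intact libraries held 1624, 1796, 1856 and 2139, the 14dOVX libraries ran from 766 over a median of 1631 to 2198, and the 4mOVX libraries from 1195 over a median of 1434 to 2071. In 5 of the 6 4mOVX libraries (1195 to 1529) the value lay below every intact library, and replicate 6 at 2071 lay among them. The log2 difference at 4 months was −0.39 (SE 0.08, 95% interval −0.56 to −0.22), or 0.762 times the intact level, with an adjusted *P* of 0.129 in limma. It ranked 19 by *P* among the 21919 genes and was lower within each batch, by means of −0.41 in batch 1 and −0.25 in batch 2. Each of these differences rests on 2 intact and 3 4mOVX libraries. An exact permutation test of the means within batches gave a two-sided *P* of 0.04, against 0.0762 when batch was ignored. Such *P* values are given for single genes, use the same libraries as limma and are not adjusted. Against intact there were 100 arrangements within batches in the PH and 200 in the POA, so these values move in coarse steps. In the POA the intact libraries were split 2 and 3, so the pooled means carry part of the batch difference. The POA arrangements against intact are therefore not centred on 0, and their *P* values do not weigh both directions equally.

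The POA values of *Slc7a10* were 1531, 2011, 2057, 2147 and 2248 in the intact libraries, 1366 to 1952 with a median of 1820 at 14 days, and 1151 to 1756 with a median of 1528 at 4 months. In 3 of the 6 4mOVX libraries the value lay below every intact library, and the overlap came from intact replicate 2 at 1531. The difference at 4 months was −0.39 on the log2 scale (SE 0.09, 95% interval −0.57 to −0.20), or 0.764 times intact, with an adjusted *P* of 0.13 in limma and rank 47 of 21281. Within batches the mean differences were −0.39 and −0.42. An exact permutation test within batches on the absolute pooled difference gave a *P* of 0.01, and every arrangement counted was negative. The 14-day difference in the POA was −0.14 (95% interval −0.32 to 0.05), and the step from 14 days to 4 months was −0.25 (SE 0.08, limma adjusted *P* 0.811).

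In the PH, the 14-day value of *Slc7a10* depended on 1 library. Replicate 5 of the 14dOVX group, which stood apart in its sum and SV1, held 766, whereas the other 5 held 1589 to 2198. With SV1 in the fit the 14-day difference was −0.01 and the step from 14 days to 4 months −0.39 (limma adjusted *P* 0.214). Without a covariate these were −0.23 and −0.10, and without that library they were 0.01 and −0.40 (limma adjusted *P* 0.0725 for the step). In batch 2 alone, which holds that library, the step was 0.12. The 4-month difference from intact changed little, at −0.40 without it.

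**Figure D2:**
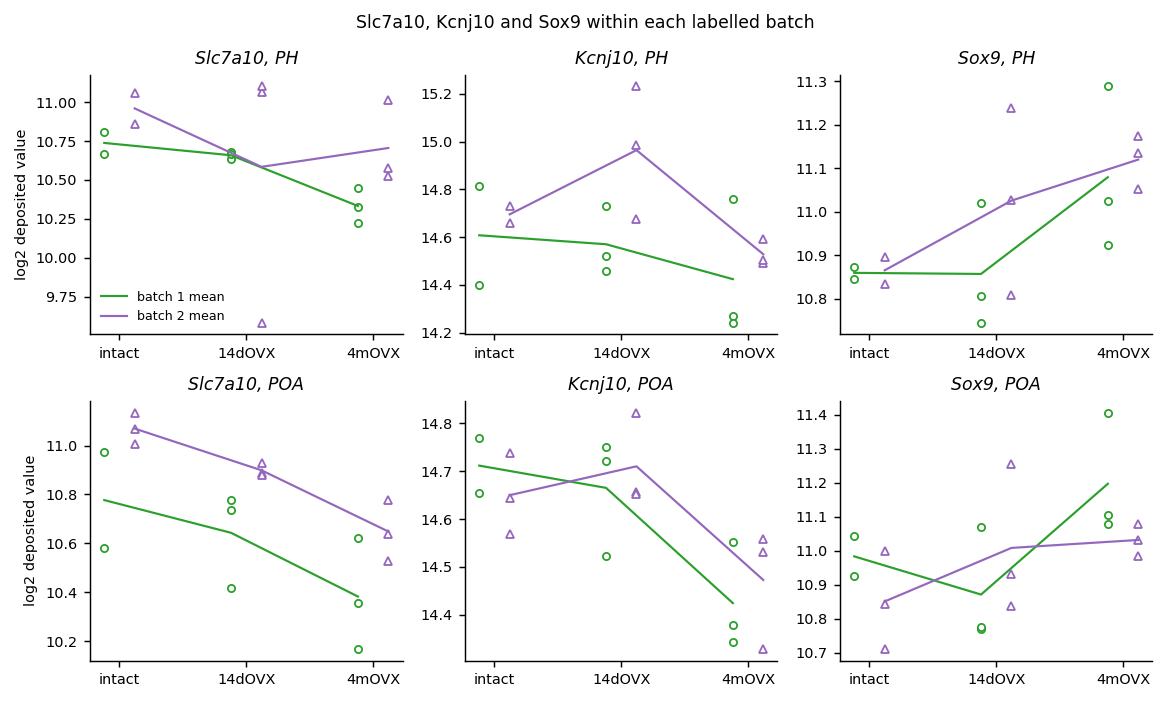
Log2 deposited value (y axis) of *Slc7a10*, *Kcnj10* and *Sox9* in the PH (top) and POA (bottom) by group (x axis), with one point per library and lines joining the means of batch 1 (circles) and batch 2 (triangles). *Slc7a10* and *Kcnj10* were lower and *Sox9* higher at 4 months than in intact libraries within both batches of each region, and the lowest *Slc7a10* point is 14dOVX PH replicate 5.

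*Kcnj10* (chr1:172168765-172201652, plus strand) encodes Kir4.1, the inward-rectifier channel that clears potassium and sets the resting potential of astrocytes. In the POA the intact libraries held 24303, 25582, 25779, 27319 and 27924, the 14dOVX libraries 23530 to 28969 with a median of 26424, and the 4mOVX libraries 20575 to 24127 with a median of 22486. All 6 4mOVX libraries lay below all 5 intact ones, so the groups did not overlap, as was true in this direction of 0.254% of the tested genes. The log2 difference was −0.22 (SE 0.06, 95% interval −0.35 to −0.09), or 0.859 times intact, with an adjusted *P* of 0.238 in limma and a two-sided exact permutation *P* within batches of 0.01. At 14 days the difference was 0.02, and from 14 days to 4 months it was −0.24 (SE 0.06, limma adjusted *P* 0.491).

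*Kcnj10* spread more widely in the PH. Intact libraries held 21643, 25907, 27170 and 28808, and the 4mOVX libraries ran from 19381 to 27740 with a median of 23132, so the groups overlapped. The log2 difference at 4 months was −0.16 (95% interval −0.44 to 0.12, limma adjusted *P* 0.903). The 14dOVX group reached 38455 in replicate 5, and leaving that library out gave −0.20 for the 4-month difference. The value also moved to −0.27 without intact replicate 1, the lowest of its group, and to −0.11 without intact replicate 2, the highest. The interval for PH minus POA in the 4-month response ran from −0.24 to 0.37, which does not show that the regions responded alike.

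*Sox9* (chr11:112673009-112678586, plus strand) was the gene of the set whose transcript was higher at 4 months in both regions with an unadjusted *P* under 0.05. In the PH the 4 intact libraries lay close together at 1826, 1839, 1876 and 1906 (CV 1.95%), the 14dOVX libraries ran from 1716 to 2419 with a median of 1935, and the 4mOVX libraries from 1943 to 2502 with a median of 2186. All 6 4mOVX libraries lay above all 4 intact ones, a separation seen in this direction for 0.552% of tested genes. The log2 difference was 0.25 (SE 0.08, 95% interval 0.07 to 0.43), or 1.19 times intact, and the adjusted *P* in limma was 0.634. A two-sided exact permutation test within batches gave *P* = 0.02, with mean differences of 0.22 and 0.26 (batch 1 and batch 2).

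In the POA, *Sox9* held 1677, 1837, 1944, 2046 and 2109 in the intact libraries, 1746 to 2445 with a median of 1892 at 14 days, and 2027 to 2713 with a median of 2164 at 4 months. In 4 of the 6 4mOVX libraries the value was above every intact library. The difference was 0.21 (SE 0.09, 95% interval 0.01 to 0.40, limma adjusted *P* 0.538), and it was 0.15 without the highest library, 4mOVX POA replicate 2. From 14 days to 4 months *Sox9* was higher by 0.21 in the PH (SE 0.08, limma adjusted *P* 1.00) and by 0.17 in the POA. The 14-day differences were 0.04 and 0.03.

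**Figure D3:**
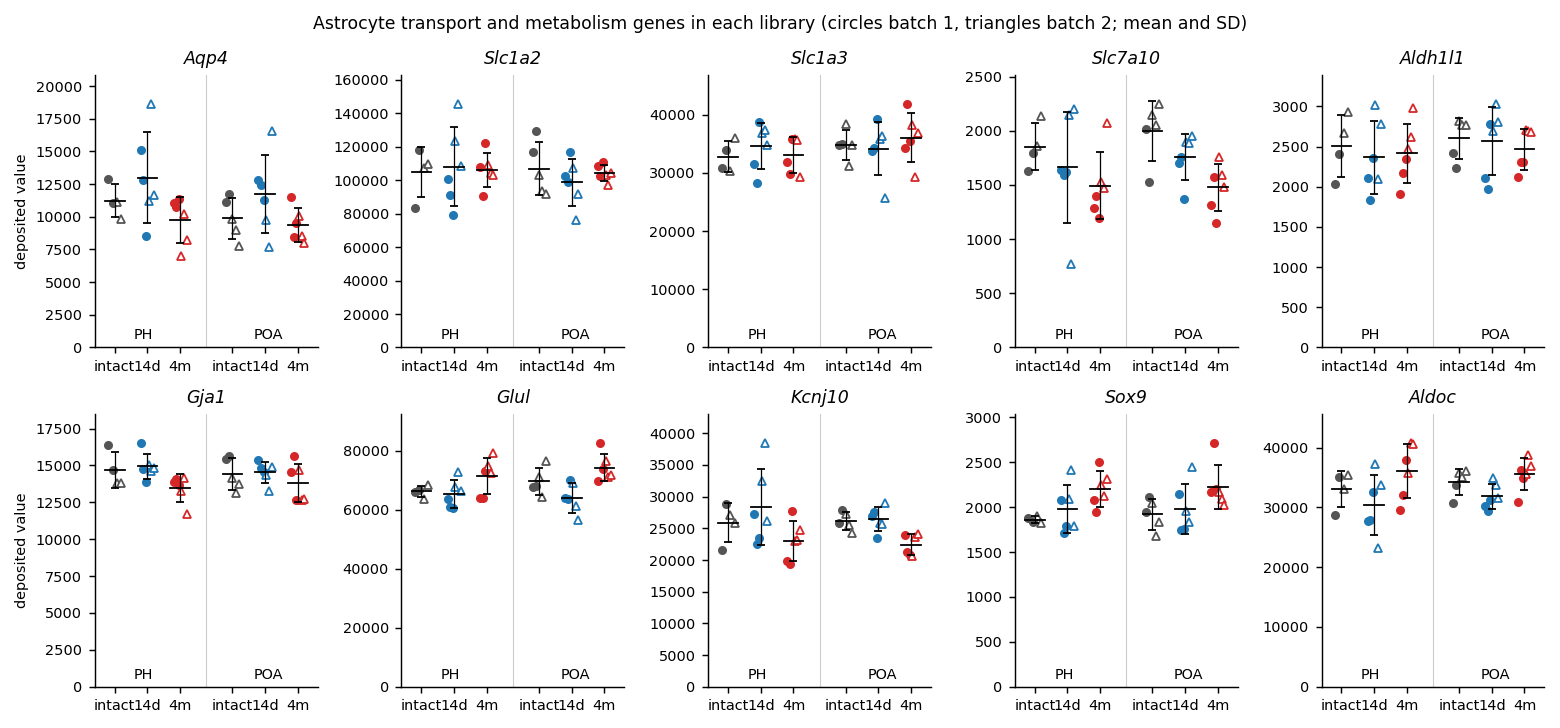
Deposited value (y axis, from 0) of each of the 10 genes in every library, by region and group (x axis), with circles for batch 1, triangles for batch 2, and lines and bars for the mean and SD. In the POA the 6 *Kcnj10* values at 4 months lie below the 5 intact values, in the PH the 6 *Sox9* values at 4 months lie above the 4 intact values, and no other gene separates intact from 4mOVX libraries in either region.

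The genes of glutamate uptake and its conversion to glutamine showed small differences from intact. *Slc1a2* (chr2:102488574-102621129, plus strand) encodes GLT-1, the main glutamate transporter of forebrain astrocytes, and in the PH it held 83413 to 118345 in intact and 90335 to 121963 in 4mOVX libraries. Its difference at 4 months was 0.04 in the PH (95% interval −0.24 to 0.32) and −0.06 in the POA (95% interval −0.22 to 0.10), where the 6 4mOVX libraries lay inside the range of the intact ones. *Slc1a3* (chr15:8663604-8741595, minus strand) encodes GLAST, the second astrocyte glutamate transporter, and differed by 0.01 in the PH (95% interval −0.18 to 0.21) and 0.02 in the POA (95% interval −0.17 to 0.21).

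*Glul* (chr1:153775690-153785469, plus strand) encodes glutamine synthetase, which makes glutamine from glutamate and ammonia. In the POA it had medians of 68147 in intact (64322 to 76598), 63715 in 14dOVX (56551 to 70132) and 72836 in 4mOVX libraries (69773 to 82629). The 14-day libraries were thus the low group, with 4 of 6 below every intact library, and 5 of the 6 4mOVX libraries lay above all 14dOVX ones. The 14-day difference was −0.13 (SE 0.06, limma adjusted *P* 0.806), with −0.05 in batch 1 and −0.18 in batch 2 and a two-sided exact permutation *P* within batches of 0.11, and it was −0.09 without replicate 6, the lowest library of that group. From 14 days to 4 months *Glul* was higher by 0.21 (SE 0.06, 95% interval 0.10 to 0.33, limma adjusted *P* 0.589, rank 37). Within batches that step was 0.19 and 0.24, with a two-sided exact permutation *P* of 0.01. Against intact, the 4-month difference was 0.08 in the POA and 0.10 in the PH, where intact libraries held 63773 to 68436 and 4 of the 6 4mOVX libraries lay above them.

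Of the 15 further genes of the glutamate and glutamine cycle, 0 were called in any of the 6 comparisons. At 4 months an unadjusted *P* under 0.05 was reached by 0 of them in the PH (list median −0.02; 6.07% of all genes) and by 2 in the POA (list median −0.08; 8.51% of all genes). The smallest *P* in the POA was that of *Glud1*, which encodes glutamate dehydrogenase, at −0.19 (limma adjusted *P* 0.325). The 5 genes of astrocyte uptake and breakdown of GABA, glycine and amines also gave 0 calls, with *Maob*, the amine-oxidizing enzyme monoamine oxidase B, at 0.31 in the POA (limma adjusted *P* 0.36).

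*Aqp4*, the water channel of astrocyte end-feet, varied more between libraries of 1 group than most of the set, with a median CV of 17% over the 6 groups. Its PH values were 9807 to 12867 in intact, 8533 to 18644 in 14dOVX and 7006 to 11393 in 4mOVX libraries, and the 2 lowest 4mOVX libraries lay below every intact one. The difference at 4 months was −0.18 in the PH (95% interval −0.42 to 0.07) and −0.11 in the POA (95% interval −0.44 to 0.23), both overlapping. They were −0.11 without 4mOVX PH replicate 4, and −0.17 or −0.06 without intact POA replicate 5 or 2. The step from 14 days to 4 months was −0.21 in the PH (95% interval −0.45 to 0.02, limma adjusted *P* 1.00) and −0.31 in the POA (95% interval −0.62 to 0.01, limma adjusted *P* 0.977), and it was −0.32 without 14dOVX PH replicate 3 and −0.16 without 14dOVX POA replicate 6. The 14-day difference in the POA was 0.20 (95% interval −0.14 to 0.53), or 0.02 without replicate 6 and 0.31 without replicate 5. The 2 highest values of all were 14dOVX libraries that stood apart otherwise, PH replicate 5 at 18644 and POA replicate 6 at 16537. The latter also had the highest means of the reactive astrocyte markers (8.80 on the log2 scale) and of the tanycyte and ependymal markers (9.50). Its means of the neuron markers (13.8) and of the oligodendrocyte markers (13.05) were the lowest of all libraries.

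*Gja1* (chr10:56253241-56278609, plus strand) encodes the main connexin of astrocyte gap junctions and was among the steadiest of the set, with a median CV of 7.21%. It held 13794 to 16374 in intact and 11705 to 14153 in 4mOVX libraries of the PH, and 13145 to 15669 and 12667 to 15613 in the POA. The differences at 4 months were −0.12 (95% interval −0.27 to 0.03) and −0.09 (95% interval −0.20 to 0.03), with 3 of 6 4mOVX libraries below every intact one in each region. They were −0.07 without intact PH replicate 1 and −0.05 without 4mOVX POA replicate 3.

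Lists of related genes were equally without calls. They held 7 genes of potassium, sodium and bicarbonate transport, 11 of water channels and perivascular anchoring, and 9 connexins and pannexin, with 0 called in each comparison. *Kcnj16*, which encodes Kir5.1 and pairs with Kir4.1 in 1 channel, differed by −0.16 on the log2 scale in the POA at 4 months (limma adjusted *P* 0.325). In the PH it differed by −0.05 (limma adjusted *P* 0.97). *Fxyd1* of the same list went the other way, at 0.28 in the POA and 0.32 in the PH (limma adjusted *P* 0.356 and 0.777). The list medians were −0.05 in the POA and 0.03 in the PH. *Lama2*, a laminin chain of the vascular basement membrane that end-feet contact, stood at 0.30 in the POA (limma adjusted *P* 0.221).

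*Aldh1l1* (chr6:90463409-90577185, plus strand) encodes the folate enzyme 10-formyltetrahydrofolate dehydrogenase, widely used as a marker of all astrocytes. It ran from 2037 to 2935 in intact and from 1914 to 2978 in 4mOVX libraries of the PH, and from 2237 to 2816 and 2119 to 2700 in the POA. The pooled ranges overlapped, and the differences at 4 months were −0.08 (95% interval −0.32 to 0.16) and −0.03 (95% interval −0.18 to 0.13). The level differed between the batches. In POA batch 1 the 4mOVX libraries held 2119 to 2307 and the intact ones 2237 to 2422. In POA batch 2 they held 2677 to 2700 and 2764 to 2816. Sets of 2 or 3 libraries are too small to read a separation from, and the share of all genes that separate in a batch was not computed. Within batches the POA means differed by −0.05 and −0.05. An exact permutation test within batches on the absolute pooled difference gave a *P* of 0.05, against 0.392 when batch was ignored. Every arrangement that reached this size was negative, so the 0.05 counts 1 direction only. With 1 library left out the 4-month difference ran from −0.13 to −0.03 in the PH, without intact replicate 1 and 4, and from −0.05 to −0.01 in the POA, without intact replicate 2 and 1. Of 14 other genes of folate 1-carbon and serine metabolism, 0 were called, and the list medians at 4 months were 0.04 and −0.02.

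*Aldoc* (chr11:78213619-78218889, plus strand) encodes aldolase C, the brain form of a glycolytic enzyme. In the POA the intact libraries held 30677 to 36043, the 14dOVX libraries 29482 to 34924 and the 4mOVX libraries 30835 to 38855, with medians of 35092, 31414 and 35935. As with *Glul*, the 14-day libraries were the low group, and 4 of 6 4mOVX libraries lay above all of them. The step from 14 days to 4 months was 0.16 (SE 0.04, 95% interval 0.07 to 0.25, limma adjusted *P* 0.693), with 0.16 and 0.15 in the batches, while the 4-month difference from intact was 0.08. In the PH that difference was 0.10 (95% interval −0.08 to 0.27), or 0.04 without 4mOVX replicate 3. Among 21 other genes of glycolysis, glycogen and lactate, 0 were called, and an unadjusted *P* under 0.05 at 4 months was reached by 1 in the PH (6.07% of all genes) and by 2 POA genes (8.51%).

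The remaining astrocyte lists gave the same count. Of 12 astrocyte transcription factors other than *Sox9* and of 36 other astrocyte-enriched genes, 0 passed in any comparison. The smallest *P* values at 4 months belonged to *Fabp7*, a fatty acid-binding protein of radial glia and astrocytes, at −0.47 in the PH (limma adjusted *P* 0.619), and to *S100b*, a calcium-binding protein, at 0.21 in the POA (limma adjusted *P* 0.194). Over the 9 lists together, 0 of 130 genes passed in any of the 6 comparisons, and 7 PH genes and 16 POA genes had an unadjusted *P* under 0.05 at 4 months (6.07% and 8.51% of all genes).

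Whether the regions responded differently was tested by an interaction term, fitted to the 33 libraries together over 22057 genes. At 14 days 0 of 10 members passed (0.00453% of all genes), with 0 members at an unadjusted *P* under 0.05 (2.99%). At 4 months 0 of 10 passed (0.00907%), again with 0 members unadjusted (3.6%). The 4-month response of the PH minus that of the POA ranged from −0.06 for *Aldh1l1* to 0.09 for *Slc1a2*, and for *Slc7a10* it was −0.03 with a 95% interval of −0.30 to 0.25.

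The values of the members did not go up and down together across libraries. Among the 45 pairs in each region, Pearson's r on log2 values had a median of 0.14 over the 16 PH libraries, with 28 pairs positive, and of −0.03 over the 17 POA libraries, with 21 positive. Of the 90 relations, 4 PH pairs and 3 POA pairs had an adjusted *P* under 0.05 in a permutation test with 100000 draws. The libraries of a region share groups and batches, which r includes.

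*Aqp4* and *Aldoc* ran opposite to each other in both regions. In the POA r was −0.75 (permutation *P* 0.00054, adjusted 0.013) and Spearman's rho −0.76 (permutation *P* 0.00056, adjusted 0.0327), with r of −0.87 and −0.67 within the batches and −0.77 without the 2 libraries farthest from the *Aqp4* median. In the PH r was −0.75 (permutation *P* 0.0009, adjusted 0.0135) and rho −0.63 (permutation *P* 0.0107, adjusted 0.0876), with r of −0.55 and −0.81 within batches and −0.66 without the 2 farthest. *Glul* and *Kcnj10* were opposed in the POA, at r = −0.77 (permutation *P* 0.00016, adjusted 0.013) and rho = −0.74 (permutation *P* 0.00099, adjusted 0.0327), with −0.85 and −0.73 within batches and −0.67 without the 2 farthest. The PH value for that pair was positive, and the difference between the regions was not tested.

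A further 3 pairs were positively related in the PH. *Glul* and *Sox9* had r = 0.77 (permutation *P* 0.0005, adjusted 0.013) and rho = 0.73 (permutation *P* 0.00197, adjusted 0.0371), with 0.80 and 0.79 within batches and 0.73 without the 2 farthest libraries. *Slc1a2* and *Kcnj10* had r = 0.77 (permutation *P* 0.00058, adjusted 0.013) and rho = 0.71 (permutation *P* 0.00306, adjusted 0.0393), with 0.55 and 0.94 within batches and 0.72 without the 2 farthest. *Aldh1l1* and *Aldoc* had r = 0.75 (permutation *P* 0.00088, adjusted 0.0135) and rho = 0.76 (permutation *P* 0.00109, adjusted 0.0327), with 0.82 and 0.79 within batches and 0.72 without the 2 farthest. In the POA, *Slc1a3* and *Glul* had r = 0.68 (permutation *P* 0.00341, adjusted 0.0438) and rho = 0.55 (permutation *P* 0.0231, adjusted 0.16), with 0.82 and 0.64 within batches. There r was 0.27 without the 2 libraries farthest from the *Slc1a3* median, so the pooled value rests on those.

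**Figure D4:**
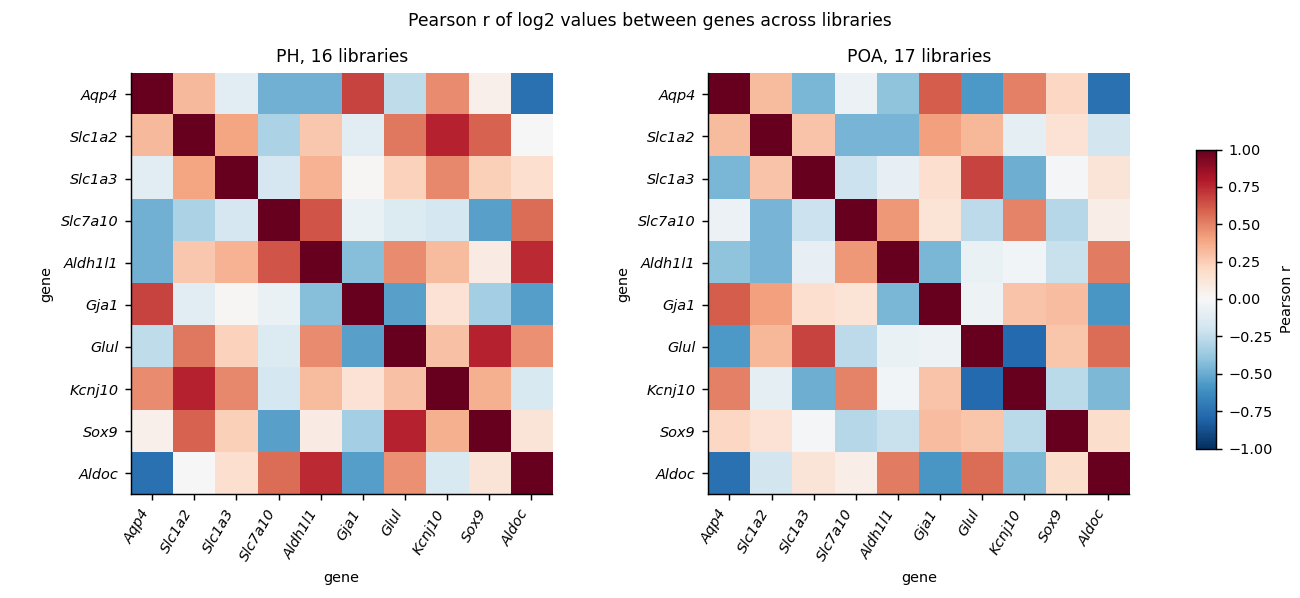
Pearson's r of log2 values between each pair of the 10 genes (both axes) across the 16 PH libraries (left) and the 17 POA libraries (right), from −1 (blue) to 1 (red). *Aqp4* against *Aldoc* is −0.75 in each region, and the 45 pairs of a region range from −0.75 to 0.77 in the PH and from −0.77 to 0.68 in the POA.

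Likeness to the set as a whole was weak. Even for the most alike genes, named next, r with single members ran from −0.45 to 0.78 in the PH and from −0.68 to 0.74 in the POA. By median r with the 10 genes, the 3 most alike genes in the PH were *Triobp*, *Ptch1* and *Shank1*, each at 0.53, over 16 libraries. In the POA they were *Gm49797*, *mt-Tf* and *Yy2*, at 0.35, 0.34 and 0.32 over 17 libraries.

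Marker levels of other cell types are set beside these values. The summed level of the 10 genes overlapped between the groups in both regions. It was 265418 to 314770 in intact and 266079 to 327801 in 4mOVX libraries of the PH, and 278273 to 327350 and 288131 to 315074 in the POA. This sum rests mostly on *Slc1a2* and *Glul*, with PH intact means of 104688 and 66271. It hardly reflects *Slc7a10* and *Sox9*, with PH intact means of 1854 and 1862. The 10 microglia markers summed to 13979 to 15312 in intact and 15292 to 18999 in 4mOVX libraries of the PH, with a median log2 difference of 0.26, and to 14630 to 15770 and 15331 to 18974 in the POA, with a median of 0.18, so that the sums overlapped slightly in both regions. One of them, *C1qa*, a subunit of complement C1q, was the only gene of any list here to pass, and it rose by 0.43 in the POA at 4 months (SE 0.08, limma adjusted *P* 0.0427).

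The 10 endothelial markers summed to 9104 to 10568 in intact and 10995 to 15166 in 4mOVX libraries of the PH, without overlap, and to 9553 to 11181 and 10124 to 14478 in the POA, with medians of 0.28 and 0.15. The reactive astrocyte list had medians of 0.27 in the PH, where 11 of 12 genes were tested, and 0.12 in the POA, and 0 of its genes were called. *Gfap*, the intermediate filament of reactive astrocytes, stood at 0.44 in the PH (limma adjusted *P* 0.823) and 0.12 in the POA (limma adjusted *P* 0.895), and *Vim*, the filament vimentin, at 0.35 and 0.24 (limma adjusted *P* 0.619 and 0.752). *Serpina3n*, a secreted protease inhibitor and reactive marker, was at 0.70 in the PH (limma adjusted *P* 0.084). Lists of neurons, oligodendrocytes, their precursors and tanycytes had 4-month medians of −0.03, −0.13, 0.02 and −0.16 for PH libraries; the POA medians were −0.04, −0.07, −0.03 and 0.01. The part of these shifts in the differences of *Slc7a10*, *Kcnj10* and *Sox9* was not tested.

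**Figure D5:**
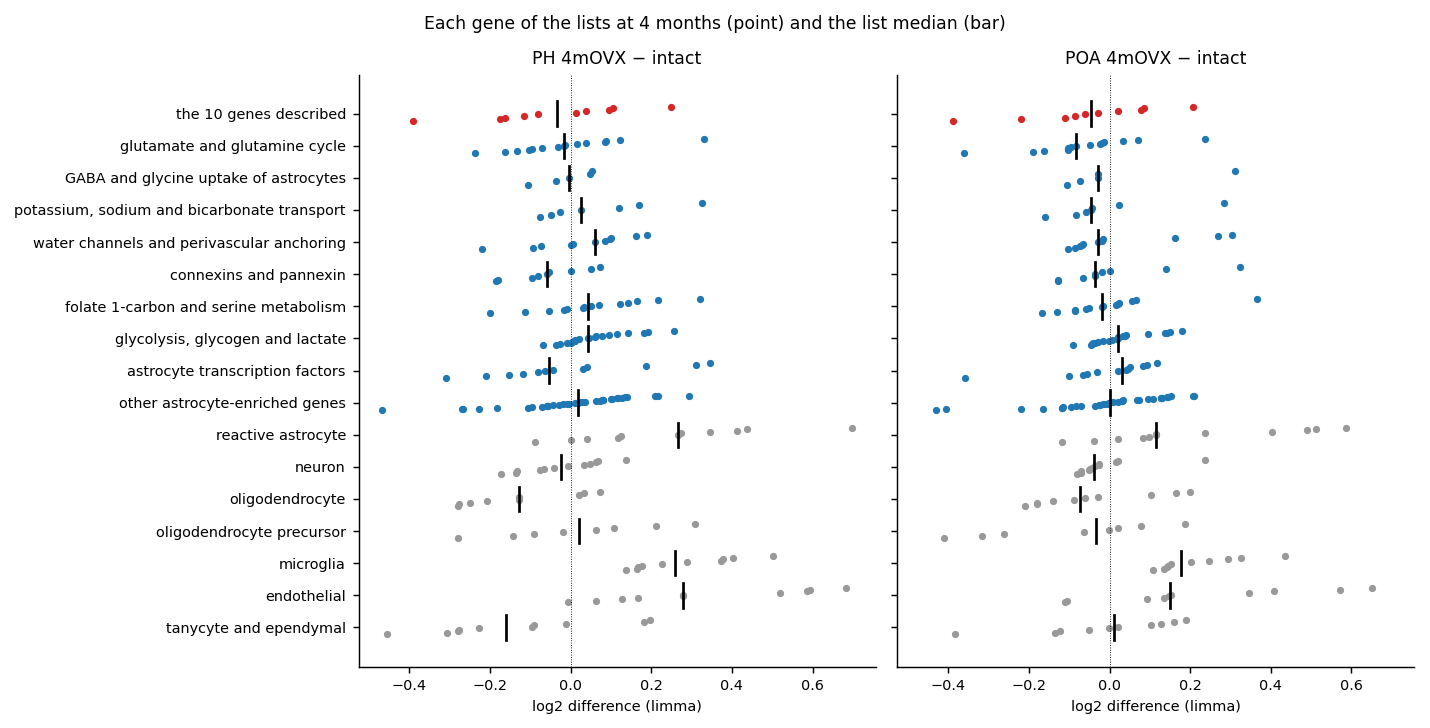
Log2 difference between 4mOVX and intact libraries (x axis) for each gene of each list (y axis) in the PH (left) and POA (right), one point per gene and a bar at the list median, with the 10 genes described in red, other astrocyte functions in blue and cell type markers in grey. The medians of the 10 genes are −0.03 and −0.04, those of microglia 0.26 and 0.18, and those of endothelial markers 0.28 and 0.15.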

How the data were processed

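The authors pseudoaligned stranded mRNA reads to the mouse transcriptome (mm39) with kallisto, summarized them per gene and analyzed them with DESeq2 and a surrogate variable. The deposited file used here is 1 table of normalized signal on a linear scale, not counts, and the step that made these values is not given in the sources used here. Raw reads, which the study states were deposited, were not analyzed, so depth is unknown and no counting interval is given. Whole numbers make up 0.000219% of the values, and no column lacked a sample.

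The 1259 of 42824 entries that carry no gene name were dropped. Tests covered genes with a value of at least 2 times the floor (22.2) in 4 or more PH or 5 or more POA libraries. The planned count test does not suit this unit, so limma 3.58.1 (R 4.3.3, statmod 1.5.0; trend and robust variance) was fitted to log2 values without a pseudocount, on the 3 groups of a region with SV1, estimated by iteratively reweighted surrogate variable analysis in base R (5 rounds). The fit was tested on simulated data. *P* values were adjusted over all genes tested. Single members were also compared by exact permutation within the 2 labelled batches, and correlations by 100000 permutations (Python 3.11.15, numpy 2.4.6). No pairing by replicate number was assumed.

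The 10 members, the 9 lists and the cell type markers were chosen with earlier results of these data known. Named besides the members are called list genes, at most the gene with the smallest *P* of a list, *Gfap*, *Vim*, and the 3 genes per region with the highest median r. The alternatives were no covariate, batch in place of SV1 or beside it, a replicate block, only the 2 groups compared, no filter, single batches, and each library left out in turn. Positions and promoters were read from GRCm39 with GENCODE M39, a later release than that of the authors.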

Additional observations from a re-analysis of the deposited data

Results flagged for a closer look

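Within the 6 groups, the gap between the highest or lowest library and its neighbour was compared with the range of the group for each of the 10 genes, on log2 values, and 4 of 60 groups passed Dixon's 95% critical value, where chance gives about 3. *Slc7a10* stood at 766 in 14dOVX PH replicate 5, against 1589 to 2198 in the other libraries of that group. *Slc1a3* stood at 25650 in 14dOVX POA replicate 6, against 33730 to 39246. *Gja1* stood at 11705 in 4mOVX PH replicate 6, against 13301 to 14153. *Sox9* stood at 2713 in 4mOVX POA replicate 2, against 2027 to 2203. No member passed the limma test of a difference between the regions.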

How the results depend on the processing

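The count of members called was 0 in the main comparisons and in all 223 alternative ones, interaction terms included. Among the alternative comparisons of groups within a region, the smallest limma adjusted *P* of any member was 0.0725. *Slc7a10* kept its sign at 4 months in every alternative, from −0.41 to −0.25 in the PH and from −0.44 to −0.32 in the POA, and from −0.45 to −0.34 and −0.46 to −0.34 with a library left out. Its adjusted *P* ran from 0.079 to 1.00 in the PH and from 0.0764 to 0.762 in the POA. *Kcnj10* and *Sox9* kept their signs at 4 months as well.

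Small differences turned. In the PH at 4 months *Slc1a2* was −0.00177 under the replicate block and −0.0398 in batch 2, and in the POA in batch 2 *Aqp4* was 0.00299, *Slc1a2* 0.0806 and *Slc1a3* −0.00247. *Slc1a3* was −0.0406 in the POA with SV1 and batch. *Slc7a10* in the PH was 0.00249 at 14 days with only the 2 groups compared and 0.00123 without a filter, and its step from 14 days to 4 months was 0.12 in batch 2. Also at 14 days, *Sox9* was −0.00555 under the replicate block and −0.00248 in batch 1 of the PH, and in batch 1 of the POA *Sox9* was −0.112 and *Kcnj10* −0.0465. With a library left out, *Slc1a2* ran from −0.0949 to 0.0981 and *Slc1a3* from −0.0219 to 0.0647 in the PH and from −0.011 to 0.0765 in the POA at 4 months, and at 14 days *Slc7a10* from −0.0554 to 0.0552 and *Sox9* from −0.017 to 0.0736 in the PH, and *Sox9* from −0.0536 to 0.0723 and *Kcnj10* from −0.0127 to 0.0521 in the POA. The cause was not tested.

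Over all genes, the 7 calls in the PH at 4 months were 0 to 9 in other fits and 5 to 14 with a library left out, and the 20 in the POA were 0 to 21 and 4 to 37. The replicate block gave 0 members called. Same-numbered libraries had correlated deviations from −0.18 to 0.39 in the PH and −0.31 to 0.39 in the POA, and 6 of 16 and 5 of 17 libraries correlated best with their own number.

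Groups of 4 to 6 libraries, 2 batches, bulk tissue and an unknown depth limit these values, and a difference that misses the threshold is not shown to be absent.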
